A study of Mus musculus and Homo sapiens with 12 samples.

Results

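The baseline tRNA pools of untreated cells were compared in 6 of the 12 libraries of the series: the 3 controls of the fibroblast experiment and the 3 controls of the keratinocyte experiment. MEF are mouse embryonic fibroblasts, and these control cells were grown in high-glucose DMEM with dialyzed fetal bovine serum for some hours, on whose number the labels and the methods differ, and received no halofuginone (HF), the prolyl-tRNA synthetase inhibitor given to the treated MEF. NTERT are an immortalized line of human keratinocytes, and these control cells were kept in low-calcium EpiLife medium with growth supplement and were not exposed to ultraviolet B. Species, cell type, medium and experiment differ together between the groups, so that their parts in any difference cannot be told apart, and shares and ranks were compared within libraries. The study calls its replicates biological, and the labels do not say whether the 3 libraries of a group came from separate cultures, so the p-values measure the spread between these libraries. The files list tRNA genes alone and hold no marker genes against which the labelled cell types could be checked.

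A transfer RNA (tRNA) pairs its 3-base anticodon with a codon and carries the matching amino acid, which an aminoacyl-tRNA synthetase attaches to the CCA tail at its 3′ end. The tRNAs that carry an amino acid with a given anticodon form an isoacceptor, often encoded by many genes, and the isoacceptors of an amino acid read its different codons. Cells of different tissues hold tRNA pools of different composition, and tRNAs left without an amino acid bind and activate the kinase GCN2, which lowers translation initiation. In the charging assay, periodate oxidizes the last base of an uncharged tRNA, which is then lost, while the amino acid protects that base in a charged tRNA. A read that ends in CCA was therefore counted as charged and a read that ends in CC as uncharged, and the percent charged is the share of CCA among both.

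The tRNA genes of the MEF libraries took 1203478, 617693 and 3013132 reads, and those of the NTERT libraries 863931, 253693 and 1992671, which was 1.33% to 9.52% of all reads. A CCA or CC end was present on 91.9%, 86.9% and 93.8% of tRNA reads in MEF and on 57.6%, 47.2% and 57.8% in NTERT. The median percent charged over isoacceptors was 71.7%, 54.7% and 80.6% in MEF and 48.0%, 48.8% and 49.9% in NTERT, so that the MEF libraries spread far more widely among themselves. Neither of these last values overlapped between the groups. With 3 libraries a group, the two-sided exact permutation test of a single value cannot go below p = 0.1, which both reached, with an adjusted p of 0.157 over the 22 single values tested in this way.

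The MEF files held 224 gene entries in 51 isoacceptors and the NTERT files 260 entries in 49, and 47 isoacceptors were in both. An entry is a tRNA sequence of the authors' reference. Removal of duplicate sequences is described for the human reference only. Among the MEF entries, several loci of Ile-TAT and of Tyr-GTA stand under the same transcript number. The number of entries therefore need not be the number of gene copies. Of the 4 isoacceptors listed for MEF alone, Gly-ACC took 30, 14 and 58 reads in the 3 libraries, Ser-GGA 3, 2 and 5, the suppressor-like Sup-TTA 5, 1 and 2, and Sup-TCA 1, 0 and 0, where a count of 0 allows up to 3 reads. Of those listed for NTERT alone, Ile-GAT took 41, 39 and 50 reads and Tyr-ATA 26, 17 and 25. All 6 had a mean under 50 reads, whereas the 47 shared isoacceptors all exceeded it in both cell types, and they were tested together. Intervals from such reads cover counting error only, since the reads carry no molecular identifiers.

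A few isoacceptors took most of the tRNA reads, and largely the same ones in both cell types. In MEF the 10 most read were Gly-GCC at 18.1% ± 1.59 of tRNA reads (SD, n = 3 here and below), Glu-CTC at 13.0% ± 1.78, Lys-CTT at 13.0% ± 2.83, Arg-CCT at 12.6% ± 2.39, Glu-TTC at 9.03% ± 3.38, Gln-CTG at 8.31% ± 1.25, Gly-TCC at 4.02% ± 0.387, Gly-CCC at 3.68% ± 0.401, Arg-CCG at 2.73% ± 0.384 and Asp-GTC at 1.98% ± 0.120. In NTERT they were Glu-CTC at 21.3% ± 5.03, Gly-GCC at 10.7% ± 3.24, Glu-TTC at 9.49% ± 1.29, Gln-CTG at 7.75% ± 0.725, Arg-CCT at 5.93% ± 1.84, Lys-CTT at 4.99% ± 0.172, Gly-TCC at 4.56% ± 1.44, the initiator iMet-CAT, which starts every protein, at 4.15% ± 1.90, Gly-CCC at 3.90% ± 1.52 and Ala-AGC at 3.81% ± 1.47. Thus 8 of the 10 were shared, all of them for glycine, glutamate, glutamine, lysine or arginine. These are shares of reads, with no correction for length, and tRNAs are all short and of similar length. The methods describe ligation of both adapters before reverse transcription and no step that removes base modifications. How evenly the different tRNAs became reads was not measured, so a share of reads need not be a share of tRNA molecules.

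By some measures the MEF pool was the more concentrated. Its 10 most read isoacceptors held 85.6%, 85.4% and 88.7% of the reads against 75.4%, 76.3% and 79.6% in NTERT, and 90% of the reads were reached by 13, 14 and 11 isoacceptors in MEF and by 19, 20 and 18 in NTERT. The groups did not overlap in either value (exact permutation p = 0.1, adjusted 0.157). The effective number of isoacceptors, which weights each by its share, was 9.97, 9.59 and 9.05 in MEF and 13.1, 11.3 and 9.17 in NTERT, with overlap (exact permutation p = 0.3, adjusted 0.347), and the most read entry alone took more of the pool in NTERT. The order of the 47 isoacceptors by share was nevertheless close: Spearman's rho between libraries, as a description across isoacceptors that share their library, was 0.976 to 0.990 within MEF, 0.933 to 0.959 within NTERT and 0.830 to 0.874 between them. The share of an isoacceptor did not follow its number of entries (rho between -0.09 and -0.02 in the 6 libraries). Over the 45 isoacceptors with a tRNA gene symbol in the RefSeq annotation of mouse GRCm38, with initiator and elongator methionine summed, rho with the number of annotated gene copies was 0.362 to 0.386 in MEF.

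**Figure D1:**
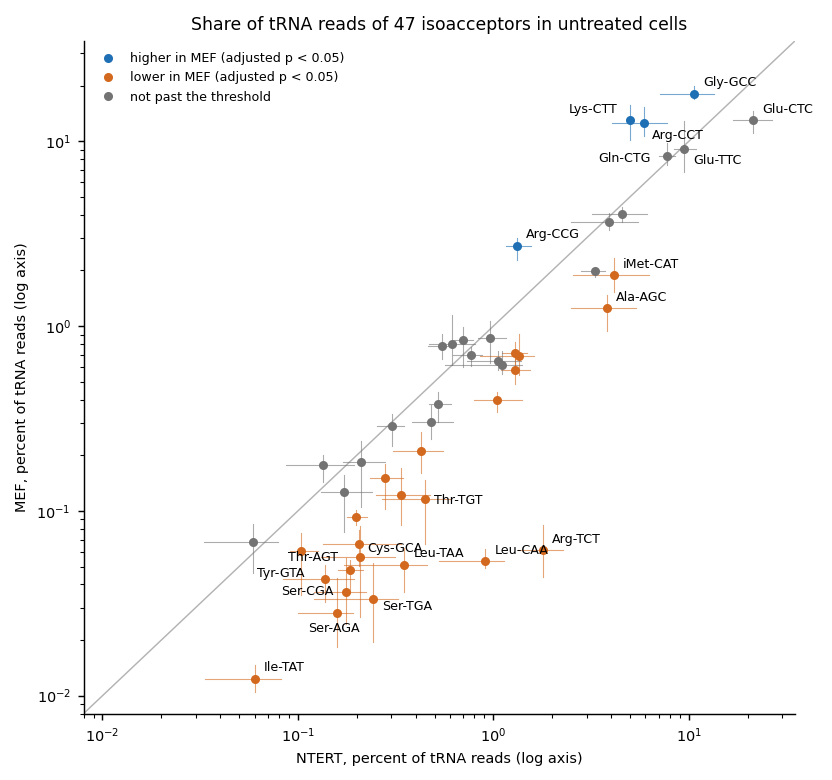
Share of tRNA reads of the 47 shared isoacceptors, NTERT on the horizontal and MEF on the vertical log axis. Points are means of 3 libraries, lines run from the lowest to the highest library, the diagonal marks equal shares, and Arg-TCT and Leu-CAA lie farthest below it.

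The share of reads differed between MEF and NTERT in 27 of 47 isoacceptors (57.4%; limma on log2 percent share, Benjamini-Hochberg adjusted p under 0.05), of which 4 were higher in MEF (8.51%) and 23 lower (48.9%). In 32 of the 47 (68.1%) the libraries of the groups did not overlap. The lower ones included tRNAs that are spliced, that is, whose genes carry an intron in some or all copies, and all 4 serine and all 3 threonine isoacceptors. The higher ones were Lys-CTT, Arg-CCT, Arg-CCG and Gly-GCC. Because shares must add up, a few abundant isoacceptors that are higher leave the others lower: the median difference over the 47 was -0.76 on the log2 scale. After TMM scaling 9 were higher and 15 lower, with a median of -0.14, and after median-of-ratios scaling 11 and 14, with a median of -0.02. Past the threshold in the same direction under all 3 scalings were the 4 higher and 14 of the 23 lower isoacceptors.

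The farthest apart was Arg-TCT, which reads the AGA codon of arginine. It took 0.0568%, 0.0834% and 0.0439% of the reads in MEF and 2.27%, 1.33% and 1.77% in NTERT, a share 29.5-fold lower in MEF (log2 difference -4.88 ± 0.35 SE, adjusted p = 5.46e-29, limma). Leu-CAA, which reads the UUG codon of leucine, took 0.0492%, 0.0620% and 0.0499% in MEF and 1.07%, 1.13% and 0.526% in NTERT and was 16.1-fold lower (log2 difference -4.01 ± 0.35, adjusted p = 7.11e-22). No library of either group came near those of the other. For the share, limma pooled the variance over all isoacceptors. The small size of these p-values rests on that pooling, and they do not measure an isoacceptor's own spread. Arg-TCT and Leu-CAA belong, with Tyr-GTA and Ile-TAT, to the families whose genes can hold introns, which are removed by the tRNA splicing endonuclease before the tRNA is used.

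All 4 of these families were lower in MEF, with a median log2 difference of -3.10 beside -0.76 over the 47. Summed, they took 0.148%, 0.206% and 0.157% of the reads in MEF and 3.56%, 2.72% and 2.42% in NTERT, with no overlap (exact permutation p = 0.1, adjusted 0.157). Ile-TAT took 0.0105%, 0.0147% and 0.0119% in MEF and 0.0823%, 0.0643% and 0.0336% in NTERT (log2 difference -2.20 ± 0.35, adjusted p = 1.79e-08), and was the least read of the 47 in MEF. Tyr-GTA, the sole isoacceptor tested for tyrosine, was 3.10-fold lower (log2 difference -1.63 ± 0.35, adjusted p = 2.77e-05). The references differ at these families: in the MEF files, 3 loci of Ile-TAT stand under 1 transcript number and 7 loci of Tyr-GTA under 2, the only such cases there, while in the NTERT files this was seen for 2 loci of Asn-GTT. The mouse reference is not described in the sources used here, and its part in these differences was not tested. Without the 4 families, the other isoacceptors gave 4 higher and 19 lower of 43. The library totals were kept in that setting, so the shares of the others were unchanged and it is no separate check.

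Serine tRNAs, which like those of leucine have a long variable arm, formed the next group. Ser-TGA took 0.0283%, 0.0521% and 0.0194% in MEF and 0.326%, 0.277% and 0.121% in NTERT (log2 difference -2.86 ± 0.35, adjusted p = 8.87e-13). Ser-AGA and Ser-CGA were 5.77-fold and 5.0-fold lower in MEF (adjusted p = 1.34e-10 and 3.14e-09). The 3 are among the shallowest isoacceptors of the set, and they read the 4 codons of the UCN box between them. Leu-TAA, which reads UUA, took 0.0543%, 0.0630% and 0.0363% in MEF and 0.172%, 0.419% and 0.460% in NTERT, a 6.44-fold difference (log2 difference -2.69 ± 0.35, adjusted p = 1.23e-11). All 6 isoacceptors with the largest negative difference passed under every alternative that tested them.

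The 4 higher isoacceptors are all among the 10 most read in MEF, and 3 of them have an anticodon that starts with C. Lys-CTT took 15.8%, 13.0% and 10.1% of the reads in MEF and 4.81%, 5.02% and 5.15% in NTERT, 2.56-fold higher (log2 difference 1.35 ± 0.35, adjusted p = 0.000468). Arg-CCT took 10.7%, 11.8% and 15.3% against 7.74%, 6.01% and 4.05% (log2 difference 1.12 ± 0.35, adjusted p = 0.00440), and Arg-CCG 2.98%, 2.91% and 2.28% against 1.56%, 1.22% and 1.16% (log2 difference 1.05 ± 0.35, adjusted p = 0.00700). Within arginine the pools thus differed in both directions, with Arg-CCT and Arg-CCG higher and Arg-TCT lower in MEF. For Gly-GCC the shares were 17.5%, 19.9% and 17% against 11.4%, 13.5% and 7.11% (log2 difference 0.81 ± 0.35, adjusted p = 0.0381). This last call was lost when MEF library 1 or 2 or NTERT library 1 or 3 was left out, with adjusted p of 0.0668 to 0.176. The call was also lost when only reads ending in CCA were counted (adjusted p = 0.192). For the share, limma estimated 1 variance common to all isoacceptors, which is why their SEs are equal.

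The isoacceptors were also summed by the first base of the anticodon. Anticodons that start with A, an adenosine that is converted to inosine so that it can read 3 codons, took 3.34%, 3.38% and 2.30% of the reads in MEF and 5.83%, 4.97% and 7.64% in NTERT. Anticodons that start with T took 16.7%, 15.3% and 20.03% against 24.3%, 20.7% and 22.4%, and those that start with C 58.8%, 57.2% and 57.4% against 51.8%, 53.8% and 57.0%. For these 3 the groups did not overlap (exact permutation p = 0.1 each, adjusted 0.157), although MEF library 2 and NTERT library 3 lay close for C. Anticodons that start with G took 21.8% ± 2.03 in MEF and 17.2% ± 3.81 in NTERT, with overlap (exact permutation p = 0.2, adjusted 0.244). By count, 5 of the 8 A-starting isoacceptors, 4 of the 8 G-starting, 6 of the 16 C-starting and 8 of the 15 T-starting were lower in MEF, and 3 C-starting and 1 G-starting were higher, beside 48.9% lower and 8.51% higher over all 47. Their median log2 differences were -0.96, -0.84, -0.58 and -1.0, beside -0.76 over all 47.

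Grouping by synthetase parted the pools less. Over all 47 isoacceptors 8.51% were higher and 48.9% lower in MEF, which is the background for each count here. The counts of both synthetase classes and of the queuosine-type tRNAs are near it. Synthetases fall into 2 classes of unrelated fold. The tRNAs of class I took 53.1% ± 4.94 in MEF and 60.5% ± 4.54 in NTERT and those of class II 46.5% ± 4.89 and 38.4% ± 4.28 (exact permutation p = 0.2 each, adjusted 0.244), with 2 higher and 11 lower isoacceptors in either class, of 24 and 22. The tRNAs served by the multi-tRNA synthetase complex, an assembly of synthetases in the cytoplasm, took 67.2% ± 2.81 and 66.8% ± 4.72 (exact permutation p = 1), with 3 of 24 higher and 9 lower. The amino acids that are essential in the diet took 20.1% ± 3.77 and 18.5% ± 0.867 (exact permutation p = 0.6, adjusted 0.660), with 1 of 20 higher and 12 lower. The queuosine-type tRNAs for Asn, Asp, His and Tyr, whose first anticodon base can be replaced by the modified base queuosine, took 3.35%, 3.73% and 3.01% in MEF and 6.12%, 6.003% and 5.402% in NTERT (exact permutation p = 0.1, adjusted 0.157), and His-GTG and Tyr-GTA of these 4 were lower in MEF. For His-GTG the groups overlapped, and the call was lost under either other scaling and without MEF library 1 or 3 or NTERT library 1 or 2 (adjusted p up to 0.580).

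Initiator and elongator methionine tRNAs carry the same anticodon but serve different steps. The initiator took 2.34%, 1.81% and 1.53% in MEF and 3.67%, 2.54% and 6.25% in NTERT (log2 difference -1.05 ± 0.35, adjusted p = 0.00700), a call lost without NTERT library 3, with only the reads ending in CCA, and under either other scaling. The elongator Met-CAT took 0.150% ± 0.0423 and 0.279% ± 0.0584. Initiator reads outnumbered elongator reads 13.9-fold, 10.1-fold and 15-fold in MEF and 15.6-fold, 7.37-fold and 24.4-fold in NTERT, with overlap (exact permutation p = 0.7, adjusted 0.733). The selenocysteine tRNA SeC-TCA, which inserts selenocysteine at recoded stop codons, took 0.417%, 0.439% and 0.341% in MEF and 0.952%, 1.40% and 0.792% in NTERT and was 2.56-fold lower in MEF (adjusted p = 0.000468), a call lost under median-of-ratios scaling.

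At the level of genes, the MEF reads were spread over fewer entries. In the MEF libraries 203, 196 and 198 of the 224 entries had a read, and 150 had at least 10 reads in every library. In the NTERT libraries all 260 entries had a read, and 256 had at least 10 reads in every library. To reach 90% of the reads took 27, 29 and 22 entries in MEF and 53, 60 and 52 in NTERT, with no overlap (exact permutation p = 0.1, adjusted 0.157). The most read entry was Glu-CTC-1-1 in both cell types, with 13.0% ± 1.77 of all tRNA reads in MEF and 19.6% ± 4.83 in NTERT. The numbers in the names of mouse and human genes are independent, so that the same number marks no orthologue, and reads of near-identical entries cannot be assigned with certainty.

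The leading entry held over 50% of the reads of its isoacceptor in 34 of the 47 isoacceptors in MEF and in 23 in NTERT, and it held a median of 74.1% and 49.8%. It was the same entry in all 3 libraries for 41 isoacceptors in MEF and for 38 in NTERT. In MEF, Gly-TCC, Val-TAC, Pro-AGG, Pro-CGG and SeC-TCA had 1 entry, and in NTERT His-GTG and SeC-TCA. The counts and medians above include these 5 and 2 isoacceptors, in which the leading entry holds all reads by definition. Among isoacceptors with several entries, the leading entry held the most in Glu-CTC in MEF, at 99.8% ± 0.0115 for Glu-CTC-1-1, and in iMet-CAT in NTERT, at 98.1% ± 0.427 for iMet-CAT-1-1. It held the least in Tyr-GTA in MEF, at 24.9% ± 5.03 for Tyr-GTA-2-1, and in Cys-GCA in NTERT, at 13.6% ± 4.697 for Cys-GCA-14-1. Of the 10 Tyr-GTA entries in MEF, 7 are loci under 2 transcript numbers, so reads of 1 transcript number may be split over several entries. The low leading share of Tyr-GTA therefore depends on how the reference lists its loci.

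Some isoacceptors rested almost wholly on 1 entry in MEF and on several in NTERT. Asn-GTT-3-1 held 97.6% ± 0.453 of the Asn-GTT reads in MEF, where 5 entries were listed, and in NTERT, with 17 entries, the leading entry held 39.4% ± 5.01. Lys-TTT-1-1 held 96.4% ± 0.249 in MEF against 62.5% ± 6.44 for the leading entry in NTERT, and Ile-AAT-1-1 held 89.5% ± 1.5 against 18.6% ± 6.59. The most entries with a read belonged to Cys-GCA in both cell types, with 22 in MEF and 23 in NTERT, followed in MEF by Tyr-GTA with 10, Ala-AGC and Lys-CTT with 9 and Ala-TGC with 7, and in NTERT by Asn-GTT with 17, Ala-AGC with 16, and Ile-AAT and Lys-CTT with 10. In MEF, Cys-GCA-3-1 held 59.2% ± 3.61 of the reads of its 22 entries, against the 13.6% of the leading entry in NTERT. These contrasts are descriptions of entries in references that differ, and they were not tested. The 10 entries of Tyr-GTA in MEF include the 7 loci under 2 transcript numbers.

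**Figure D2:**
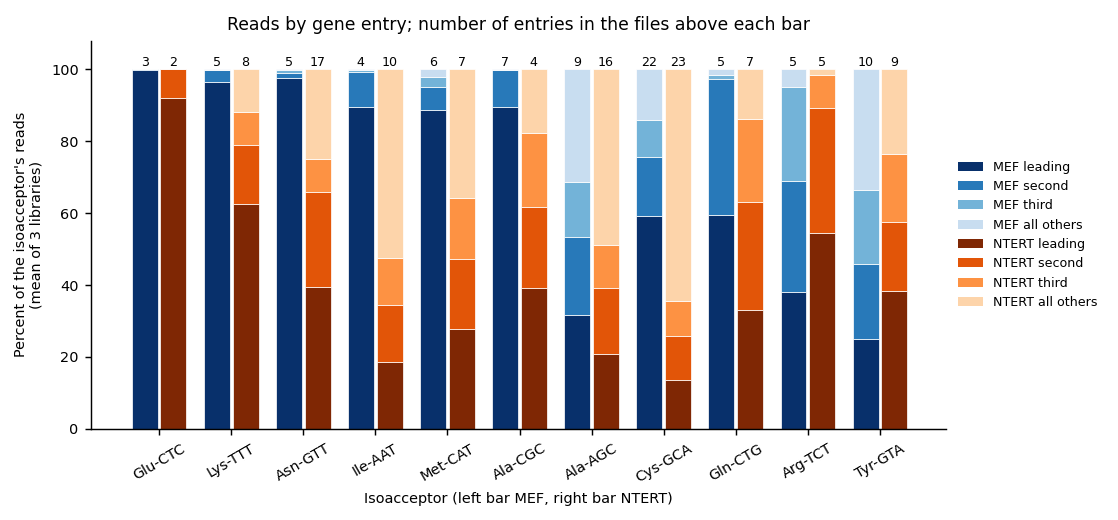
Mean percent of an isoacceptor's reads that fell on its leading entry, on the next 2 and on the remaining ones, for 11 isoacceptors, with MEF as the left and NTERT as the right bar and the number of listed entries above. Asn-GTT in MEF is almost wholly its leading entry (97.6%), while in NTERT its leading entry holds 39.4%.

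Charging was ranked within each library, from 1 for the most charged of the 47 isoacceptors to 47. Lysine tRNAs were among the most charged and proline tRNAs among the least charged in both cell types. Lys-CTT was charged at 83.5%, 76.9% and 90.1% in MEF (ranks 2, 1 and 1) and at 71.5%, 72.4% and 70.8% in NTERT (ranks 4, 6 and 6), and Lys-TTT at 82.3% ± 8.09 and 74.6% ± 2.19. Pro-AGG, Pro-CGG and Pro-TGG were charged at 47.1% ± 7.003, 50.1% ± 8.14 and 49.0% ± 5.77 in MEF (mean ranks 43.7, 42.0 and 42.0) and at 26.0% ± 9.31, 24.0% ± 2.49 and 20.2% ± 4.68 in NTERT (mean ranks 42.7, 43.0 and 45.3). Prolyl-tRNA synthetase is the enzyme that HF inhibits, but these values are those of control cells that received none. The reason for the low values was not tested.

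The rest of the highest and lowest places differed more. The 5 highest mean ranks in MEF were completed by Gly-CCC, Arg-CCG and Gln-CTG (mean ranks 4.33, 4.67 and 7.67), and the 5 highest in NTERT were Ile-TAT (rank 1 in all 3 libraries, 77.8%, 85.7% and 79.8% charged), Lys-TTT, Lys-CTT and, tied at 6.67, Asn-GTT, Gly-GCC and SeC-TCA. At the low end, Ser-AGA, Asp-GTC and Leu-AAG (mean ranks 42.7, 42.3 and 42.0) stood with the proline tRNAs in MEF, and Leu-TAG, Leu-AAG and Ser-CGA (mean ranks 45.3, 45.0 and 43.3) in NTERT. Of the 10 most and the 10 least charged isoacceptors, 6 and 4 were common to both cell types. Spearman's rho of percent charged was 0.735 to 0.830 between MEF libraries, 0.913 to 0.948 between NTERT libraries and 0.443 to 0.652 between the groups, so that the order agreed less between them than within either.

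**Figure D3:**
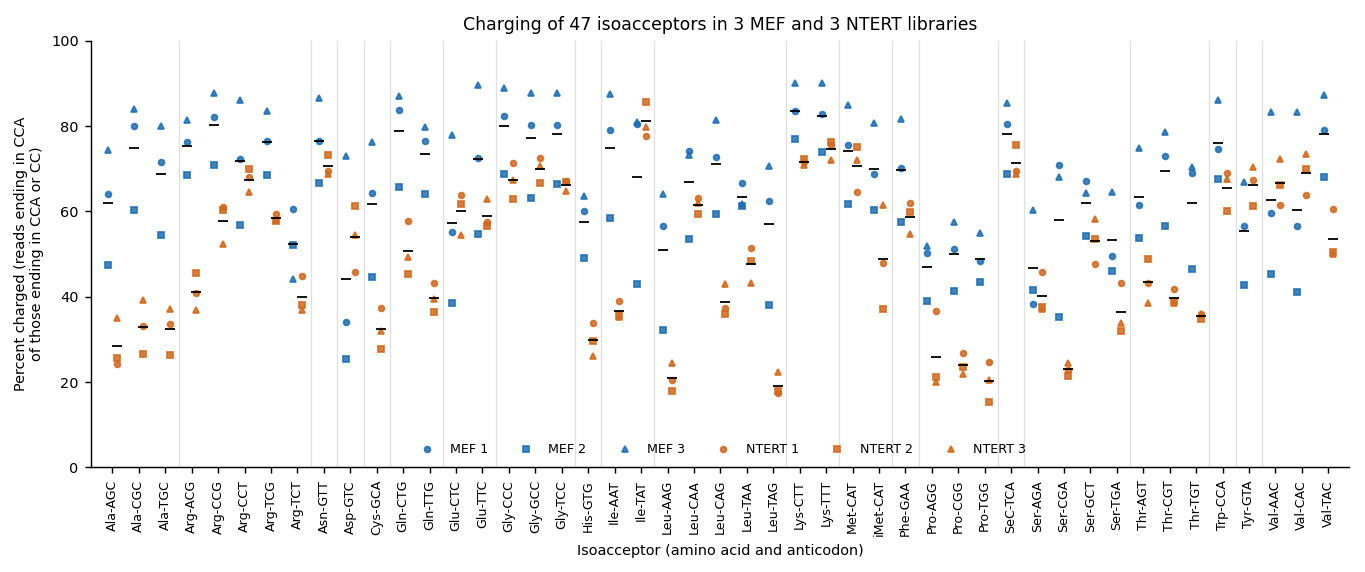
Percent charged of the 47 shared isoacceptors, grouped by amino acid, with each library as a point, MEF in blue and NTERT in orange, and the mean of 3 libraries as a dash. The 3 MEF points of an isoacceptor mostly keep the order of library 2 lowest and library 3 highest, and 6 isoacceptors have the higher mean in NTERT, namely Ile-TAT, Asp-GTC, Tyr-GTA, Val-AAC, Val-CAC and Glu-CTC.

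Isoacceptors of the same amino acid, which share a synthetase, were not charged alike. Over the 12 amino acids with several isoacceptors, the highest and lowest mean differed by a median of 10.2 percentage points in MEF and 9.49 in NTERT. The span was widest for isoleucine in NTERT, where Ile-TAT was charged at 81.1% ± 4.12 and Ile-AAT, which reads the other isoleucine codons, at 36.6% ± 2.13, in the same order in all 3 libraries. In MEF these were at 68.1% ± 21.7 and 74.9% ± 14.96. Leucine followed in NTERT, with Leu-CAA at 61.5% ± 1.86 and Leu-TAG at 19.2% ± 2.70. In MEF the widest span was within arginine, between Arg-CCG at 80.3% ± 8.53 and Arg-TCT at 52.4% ± 8.24, and in NTERT Arg-TCT was again the lowest of the 5, at 39.9% ± 4.27. The isoacceptors of lysine, glycine and proline lay within 6 points of each other in both cell types.

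To compare charging despite the different levels of the libraries, the log2 odds of a read being charged were taken relative to the median of the library. On this scale 25 of 47 isoacceptors differed (53.2%; limma, adjusted p under 0.05), 11 relatively higher (23.4%) and 14 relatively lower in MEF (29.8%), and 30 did not overlap (63.8%). Without the centring, the 21 isoacceptors past the threshold were all higher in MEF and the 14 relatively lower ones were not among them, so the directions below are relative to the pool and not absolute. With the library mean in place of the median, 14 were relatively higher and 11 lower. The count was 15 without MEF library 1 and 13 without NTERT library 2. It was 12 when the entries of an isoacceptor were weighted equally and 9 with quasi-binomial regression.

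Relatively less charged in MEF were Ile-TAT, Tyr-GTA, Asp-GTC and 2 of the 3 valine isoacceptors. Ile-TAT, charged at 80.4%, 43.1% and 80.8% in MEF, fell by 2.16 ± 0.32 on the log2 scale relative to the library median (adjusted p = 7.32e-05). Tyr-GTA was charged at 56.6%, 42.9% and 67.0% in MEF and at 67.3%, 61.3% and 70.3% in NTERT (difference -1.94 ± 0.26, adjusted p = 3.54e-05). Both are intron families with few reads in MEF. Asp-GTC varied most, at 34.1%, 25.4% and 72.9% in MEF and 45.9%, 61.3% and 54.5% in NTERT (difference -1.87 ± 0.36, adjusted p = 0.000596). Val-CAC stood at 56.5%, 41.0% and 83.3% against 63.8%, 69.9% and 73.5% (difference -1.73 ± 0.31, adjusted p = 0.000521), and Val-AAC at 62.8% ± 19.3 against 66.6% ± 5.47 (difference -1.42 ± 0.30, adjusted p = 0.000860). Val-TAC, the remaining valine isoacceptor, had a difference of 0.43 ± 0.27 (adjusted p = 0.187). The calls for Asp-GTC, Val-CAC and Val-AAC were lost with quasi-binomial regression (adjusted p = 0.117, 0.0640 and 0.0690). In these 5 isoacceptors the MEF and NTERT percentages themselves overlapped, and it is relative to the median that they did not.

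Relatively more charged in MEF were all 3 alanine isoacceptors, Ile-AAT and 3 of the 5 leucine isoacceptors. Ala-CGC was charged at 80.1%, 60.4% and 84.0% in MEF and 33.1%, 26.5% and 39.2% in NTERT (difference 1.42 ± 0.27, adjusted p = 0.000596), and Ala-TGC at 68.7% ± 13.0 and 32.4% ± 5.49 (difference 0.99 ± 0.26, adjusted p = 0.00651). Ile-AAT stood at 79.0%, 58.3% and 87.4% against 39.1%, 35.6% and 35.2% (difference 1.23 ± 0.26, adjusted p = 0.000860), opposite in direction to Ile-TAT. Leu-TAG stood at 62.5%, 38.1% and 70.7% against 17.3%, 17.9% and 22.3% (difference 1.23 ± 0.25, adjusted p = 0.000860), and Leu-CAA, with a difference of -0.91 ± 0.27 (adjusted p = 0.0137), went the other way. The call for Leu-TAG was lost with equal weights for its entries (adjusted p = 0.0592). Less stable were Ala-AGC, Leu-AAG and Leu-CAG, whose calls were lost under 4, 5 and 4 of 14 alternatives, with adjusted p up to 0.150, 0.142 and 0.165. The losses came without NTERT library 2 for all 3, without NTERT library 1 for Ala-AGC and Leu-AAG, without MEF library 1 for Leu-AAG and Leu-CAG, without MEF library 2 for Leu-CAG, with equal weights for all 3, and with quasi-binomial regression for Ala-AGC and Leu-AAG. In Ala-CGC, Ala-TGC, Ile-AAT and Leu-TAG, the 4 largest, every MEF library also had the higher percentage. Ser-CGA, the fifth by size, stood at 70.8%, 35.2% and 68.1% against 22.9%, 21.5% and 24.5% (difference 0.95 ± 0.29, adjusted p = 0.0151), a call lost without MEF library 1 or NTERT library 2 or 3 (adjusted p of 0.0626 to 0.124), with equal weights for its entries (0.321) and with quasi-binomial regression (0.0930).

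**Figure D4:**
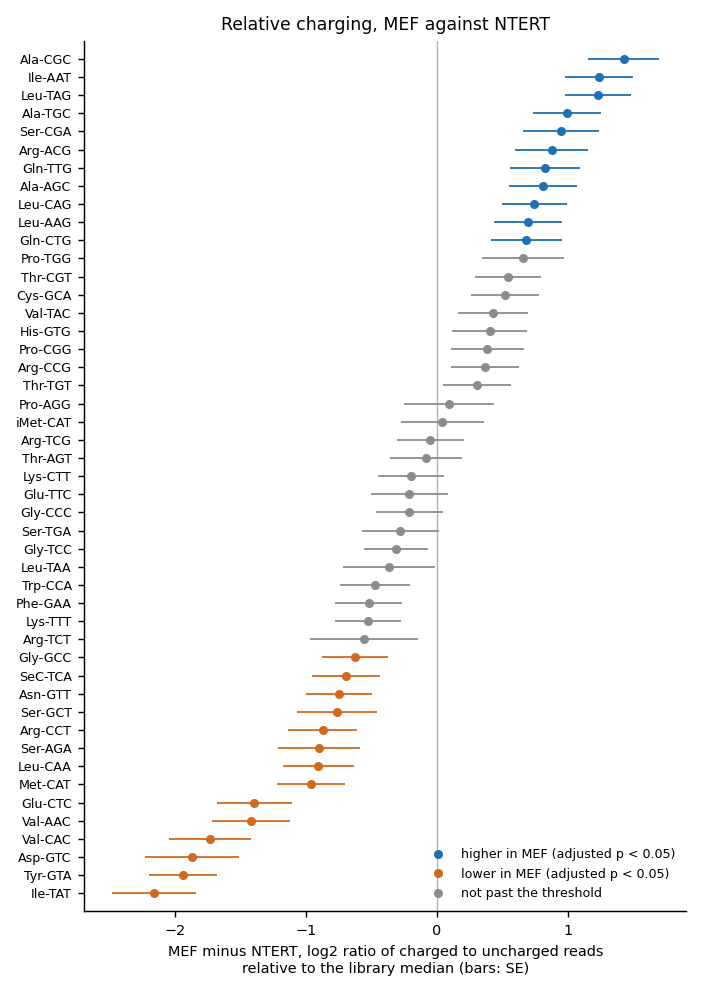
Difference between MEF and NTERT in the log2 odds of being charged, relative to the library median, for the 47 isoacceptors in order, with SE bars from limma. Ala-CGC lies at the upper end (1.42) and Ile-TAT at the lower end (-2.16).

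By anticodon, 4 of the 8 isoacceptors that start with A were relatively more charged in MEF and 2 less, with a median difference of 0.39 beside -0.20 over the 47, of which 23.4% were relatively higher and 29.8% lower. These shares over all 47 are the background for each count here, and the counts of class I, class II, the complex and the essential amino acids are near them. The median percent charged of the A-starting isoacceptors was 60.6%, 46.3% and 74.6% in MEF and 40.0%, 36.6% and 36.1% in NTERT. Of the 8 that start with G, 5 were relatively lower and the others did not pass (median -0.69), and of these the queuosine-type 4 had 3 lower (median -1.31). The 16 that start with C had 4 higher and 5 lower (median -0.08), and the 15 that start with T had 3 and 2 (median -0.21). Class I had 7 higher and 8 lower of 24 (median -0.13), class II 4 and 5 of 22 (median -0.14), the multi-tRNA synthetase complex 7 and 6 of 24 (median -0.01) and the essential amino acids 4 and 5 of 20 (median -0.14). Of the 4 intron families, 3 were relatively lower (median -1.42) and Arg-TCT had a difference of -0.56 ± 0.41 (adjusted p = 0.255). The initiator iMet-CAT had a difference of 0.04 ± 0.32 (adjusted p = 0.90), and SeC-TCA was relatively lower (difference -0.69 ± 0.26, adjusted p = 0.0333). That call was lost under 8 of 14 alternatives, among them leaving out MEF library 1 or 3 or NTERT library 1 or 2, with adjusted p up to 0.355.

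Entries of the same isoacceptor also differed in charging. Where at least 2 entries had 100 or more reads with an end in each library, the means of the highest and lowest entry lay a median of 9.49 points apart over 27 isoacceptors in MEF and 8.34 points over 25 in NTERT. The entries named next were chosen after their values were seen. The mouse Gln-CTG-5-1 was charged at 23.3%, 5.0% and 34.4% in MEF and held 0.405% of the Gln-CTG reads there. The human entry of that name, which is not marked as its orthologue by the number, was charged at 36.9%, 11.2% and 19.1% in NTERT. It held 1.73% of the Gln-CTG reads in NTERT. The most charged Gln-CTG entries reached 82.9% ± 9.50 in MEF and 54.1% ± 4.98 in NTERT. In NTERT, Gly-GCC-3-1 was charged at 28.4%, 1.56% and 11.8% (mean 13.9% ± 13.5) and Gly-GCC-1-1 at 73.1%, 68.4% and 72.0%. Gly-GCC-3-1 was a minor entry, since Gly-GCC-1-1 and Gly-GCC-2-1 took 6.49% and 3.77% of all tRNA reads, of 10.7% for Gly-GCC. Also in NTERT, Arg-CCG-1-1 was charged at 39.6% ± 2.33 and Arg-CCG-2-1 at 77.1% ± 1.72. The last pair shows a gap within an abundant isoacceptor, since Arg-CCG has 2 entries in NTERT and Arg-CCG-2-1 holds 60.8% ± 6.71 of its reads.

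The share of reads that reach a CCA or CC end is a further readout, and 3 serine and 1 leucine isoacceptors were the lowest in both cell types. Lowest in MEF were Ser-AGA at 28.7% ± 9.82, Ser-TGA at 30.7% ± 9.89, Leu-TAA at 33.3% ± 5.37, Ser-CGA at 35.8% ± 8.84 and Arg-TCT at 46.4% ± 4.94. Lowest in NTERT were Ser-TGA at 9.63% ± 6.32, Leu-TAA at 10.4% ± 6.48, Ser-AGA at 14.9% ± 6.18, Ser-CGA at 15.4% ± 3.16 and Phe-GAA at 27.2% ± 6.55. The 4 that recur have a long variable arm. The other tRNAs with such an arm all lay below the median of 91.3% in MEF. They were SeC-TCA at 90.6%, Leu-AAG at 88.7%, Ser-GCT at 84.1%, Leu-TAG at 81.5%, Leu-CAG at 75.1% and Leu-CAA at 58.8%. In NTERT, Leu-AAG at 65.1% and Leu-TAG at 57.8% lay above the median of 49.4%. Ser-GCT at 46.1%, SeC-TCA at 39.1%, Leu-CAG at 34.3% and Leu-CAA at 32.2% lay below it. Highest were Ala-CGC at 99.1% ± 0.593, Ala-AGC, Thr-CGT, Arg-ACG and Ala-TGC at 97.4% ± 2.04 in MEF, and Ala-AGC at 93.4% ± 4.14, Ala-CGC, Ala-TGC, Arg-TCT and Arg-ACG at 83.6% ± 9.38 in NTERT. Of the 10 lowest, 7 were common to both cell types, and rho was 0.590 to 0.769 between the groups.

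Relative to the library median, 17 of 47 isoacceptors differed (36.2%; limma, adjusted p under 0.05), 1 higher in MEF (2.13%) and 16 lower (34%), and 26 did not overlap (55.3%). Arg-TCT stood apart as the single isoacceptor with the lower percentage in MEF: 52.1%, 43.5% and 43.6% of its reads had an end in MEF against 83.6%, 83.6% and 93.9% in NTERT (difference -6.64 ± 0.49 on the log2 odds scale, adjusted p = 0.000215). Tyr-GTA (-2.71 ± 0.44), Ser-AGA (-2.31 ± 0.50), Ile-TAT (-2.23 ± 0.43) and Leu-CAA (-1.94 ± 0.43) followed, with adjusted p of 0.0131 to 0.0172, so that the 4 intron families, all lower (median -2.47 beside -0.63 over the 47), are the same that were low in share. Gly-CCC was the one higher isoacceptor, at 93.6% ± 1.61 in MEF and 41.7% ± 9.17 in NTERT (difference 0.83 ± 0.22, adjusted p = 0.0290), a call lost without MEF library 1 or 2 or NTERT library 3 (adjusted p of 0.0675 to 0.111) and with the replicate number as a block (adjusted p = 0.0757). The count was 2 without MEF library 2, 10 without MEF library 1 and 11 without NTERT library 3, and Arg-TCT and Tyr-GTA were the calls that stood in each. Without centring, 45 were higher and 1, Arg-TCT, lower, and with the library mean in place of the median 14 were higher and 7 lower.

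**Figure D5:**
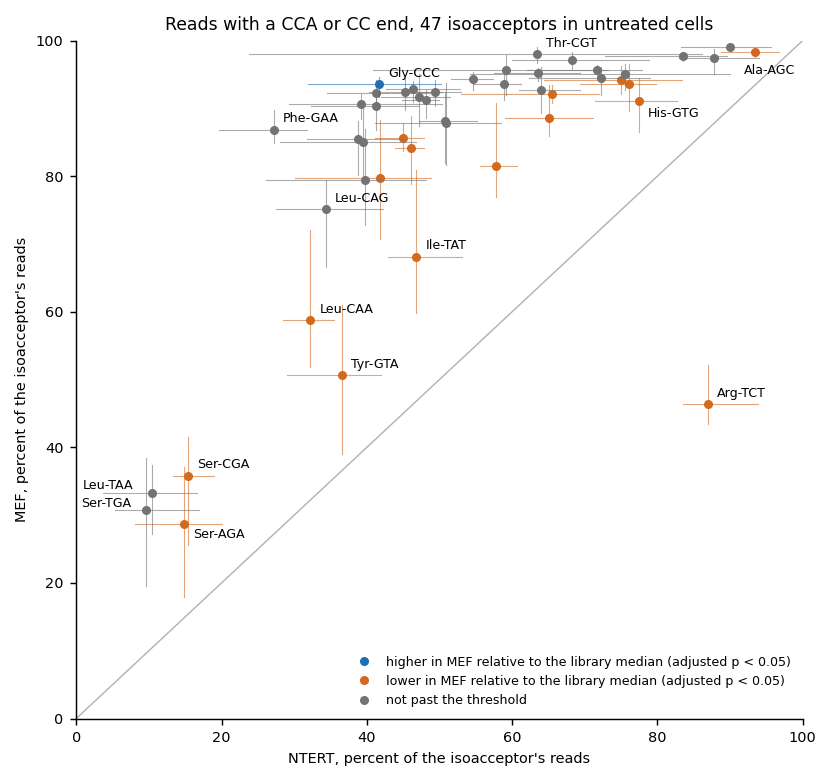
Percent of an isoacceptor's reads with a CCA or CC end, NTERT on the horizontal and MEF on the vertical axis, as means of 3 libraries with lines from the lowest to the highest library. Arg-TCT is the one point below the diagonal, and the serine and leucine tRNAs Ser-TGA, Leu-TAA, Ser-AGA and Ser-CGA form the low corner in both cell types.

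Beside the charging results stand these ends. Across the 47 isoacceptors of a library, percent charged and percent with an end ran together in MEF (rho of 0.342, 0.401 and 0.405 in order of size) and against each other in NTERT (rho of -0.443, -0.405 and -0.370), as a description with no test. The A-starting isoacceptors had a median of 93.2% of reads with an end in MEF and 65.3% in NTERT, beside 91.3% and 49.4% over all 47. Whether reads without an end held more charged or more uncharged tRNA was not tested, nor whether ends were counted alike in both experiments.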

How the data were processed

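tRNA charging was sequenced in 12 libraries, of which the 6 untreated ones were used. The deposited tables hold, per tRNA entry, whole-number read counts as the authors made them: all reads, reads ending in CCA and reads ending in CC. Per the methods and labels, adapters were trimmed with cutadapt or Trim Galore and reads aligned with Bowtie2 to nuclear tRNA sequences with CCA added. The human set came from high-confidence GRCh38 tRNAs, with duplicate sequences removed. The labels name mm10 for mouse. Versions and the making of the mouse set are not given in the sources used here.

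Reads were summed by amino acid and anticodon, leaving out the unaligned and yeast lines. Spellings of Leu and Glu in the human tables were unified. A mean of 50 reads over the 6 libraries was required, which left 47 isoacceptors for comparison, MEF minus NTERT, with limma 3.58.1 in R 4.3.3 on log2 values with a pseudocount of 0.5 reads and Benjamini-Hochberg adjustment (threshold 0.05). Charging and end odds were centred on the library median. The share and charging tests were also run on simulated data, with changes in share placed only in the less read isoacceptors. The outcome is not used as support here. Count models were planned for the share and not run, since the layout of the deposited tables kept them from being accepted as counts. As planned for that case, limma on log2 share took their place. TMM and median-of-ratios factors were computed directly from the counts. Single values were compared with two-sided exact permutation tests over 20 labelings. Tables and figures were made with pandas 2.3.3, numpy 2.4.6, scipy 1.17.1 and matplotlib 3.10.9.

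Named isoacceptors were the 10 most read in each cell type, those with the largest share differences in each direction past the threshold without overlap (up to 6), the 5 highest and lowest charging ranks, the 5 largest charging differences in each direction, those present in 1 cell type alone, the 5 with the most entries, those with 1 entry or with the most and least dominant leading entry, and the 5 highest and lowest end shares. Entries were named as leading entries only. Other isoacceptors and entries given with values, such as Tyr-GTA and Ile-TAT for the share, the initiator and selenocysteine tRNAs, and the entries of the charging comparison, were chosen after their values were seen. The isoacceptors and lists were chosen with earlier results of these data known. No mature tRNA sequences were used here. Depth ranged from 253693 to 3013132 tRNA reads a library, and, with no molecular identifiers, PCR copies of a molecule are counted as separate reads. Replicate numbers in the NTERT labels differ from those in the file names, and the labels were followed.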

Additional observations from a re-analysis of the deposited data

Results flagged for a closer look

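The line of unaligned reads, which enters no comparison, held reads with a CCA or CC end in the NTERT libraries, 70858, 16423 and 95403 of them in libraries 1, 2 and 3, against 0 in each MEF library. The line for yeast tRNA held 5 reads in MEF library 1, 1 in MEF library 2 and 5 in MEF library 3. Both were noted because they are signals outside the measurement, and neither enters a share or a percent charged given above. The MEF lines with 0 such ends held 11434186, 12274450 and 84940305 unaligned reads in libraries 1, 2 and 3. Whether ends were counted alike in both experiments, which bears on the end and charging comparisons, was not tested.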

How the results depend on the processing

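For the share, the count of 27 stayed between 23 and 27 when each library was left out in turn. It was 23 without the intron families and between 24 and 32 under the other alternatives. The charging count of 25 fell to 12 with equal weights for entries and to 9 with quasi-binomial regression, and was 13 to 24 with libraries left out in turn. The end count of 17 rose to 46 without centring and was 2 to 18 with libraries left out. Without centring the end differences of Tyr-GTA, Ser-AGA, Ile-TAT and Leu-CAA turned to 0.84, 1.25, 1.33 and 1.61, since the MEF libraries have more ends throughout. With equal weights for entries 8 isoacceptors had relatively more ends and 12 fewer. Of the values of named isoacceptors and other single values under the alternatives, 348 kept their direction and side of the threshold, 27 lost the call and 4 turned. The causes were not tested. The setting with no minimum tested the same 47 isoacceptors and is no separate check. Leaving out the intron families kept the library totals and the shares of the others, and is no separate check either. Median-of-ratios scaling and leaving out the intron families were chosen after seeing the data.

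With the replicate block, the counts were 32 for the share, 23 for charging and 12 for ends. Deviations of same-numbered libraries correlated at -0.27 to 0.43 for the share, -0.16 to 0.25 for charging and 0.04 to 0.23 for ends, and 1, 2 and 2 of the 3 pairs correlated best with their own number. With 3 pairs this cannot settle whether same-numbered libraries belong together. Depth limits the rare isoacceptors most, with counting error only covered.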
